A study of Mus musculus with 9 samples.

Results

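The 85 rows described here carry the name of a protein-coding gene followed by "os", for opposite strand. They were chosen from the 53379 rows of the count table by 3 conditions. The row name is another row's name (the stem) followed by os or os and a digit, the counts of the 9 libraries sum to 90 or more, and Dhx58os is left out. Of 295 rows named in this way, 209 fell below the minimum and 1 was Dhx58os. The 85 rows belong to 80 stems, since Gss, Rapgef3, Arhgap27, Usp46 and Ube4b each gave 2 rows. The summed count chose the rows, so their level, alone or beside the stem's row, is a description and was not tested. Just inside the minimum lay Mecomos with 91 counts and Hk1os with 98. Just outside lay Tmem51os1 with 85 and Bach2os with 84.

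The libraries came from MOVAS, an immortalised smooth muscle line from mouse aorta, labelled with the genotype C57BL/6. All 3 groups therefore share 1 line, grown with serum and geneticin. By the labels, the control group had no treatment, the DON group had 50 mM DON for 24 h, and the last group had the same DON plus 2 mM glutamate. DON resembles glutamine and inactivates enzymes that use it, and the labels class it with glutaminase inhibitors. The labelled DON dose is high for this compound, and the supplier number given for glutamate may be that of a glutamine dipeptide supplement, so what was added beside DON is uncertain. Each group had 3 libraries, with 1132822 to 1342286 counts per library. The labels do not say that replicates were separate cultures, so p-values reflect only how far these libraries differ, and that spread could be technical.

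An antisense transcript is made from the DNA strand opposite to a gene, so its RNA is complementary to the gene's RNA where their exons overlap. Many genes have such a partner, often starting near the gene's own promoter, and partners are usually noncoding and less abundant than the messenger RNA. Only libraries that mark the strand can separate both transcripts where they overlap, and only if the counting program is given the matching strand setting. The strand setting and the library kit are not given in the sources used here. Each row is therefore read as its stem gene, a rule set with the counts in view, and the row's own name is kept. From these counts alone, the named transcript and its stem cannot be told apart.

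The opposite-strand rows held far more counts than the rows of the protein-coding genes they are named for. Per library they took 1.74% ± 0.017 of all counts (SD, n = 9), while the 80 stem rows took 0.229% ± 0.0054. Within the pairs, the opposite-strand rows made up 88.4% ± 0.31 of the counts (SD, n = 9). Without Scpep1os, the row with the most counts, this share was 87.2%. Over all pairs it was 96.0% ± 0.11 per kilobase of annotated exon. Length here is every annotated exon base of a row, over all its transcripts. Were a row's reads from spliced RNA of its stem alone, only shared exon could hold them. Per-kilobase values are therefore rough descriptions. The share of the library was 1.75% ± 0.0054 in control, 1.74% ± 0.017 in DON and 1.73% ± 0.028 in DON plus glutamate (SD, n = 3 each).

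Pair by pair, the opposite-strand row was above its stem's row in all 9 libraries for 74 of 85 rows. The median row summed to 1013 counts and the median stem row to 20. The opposite-strand row held over 90% of the pair in 65 rows and over 99% in 35, with a median of 98.5%. Per kilobase of exon it was the higher of the pair in 82 rows. Stems of every role showed such pairs. Signalling and cell death stems ran from 89.6% to 99.7%, and the 4 genome repair and RNA-binding stems from 98.4% to 99.8%. The other roles reached lower. The lowest share was 11.8% for transcription (Zfp335os), 22.7% for metabolism (Acss2os) and 21.9% for protein turnover (Fbxl12os). It was 79.8% for membrane traffic (Arf4os) and 2.61% for stems with no role stated (Wdr83os).

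**Figure D1:**
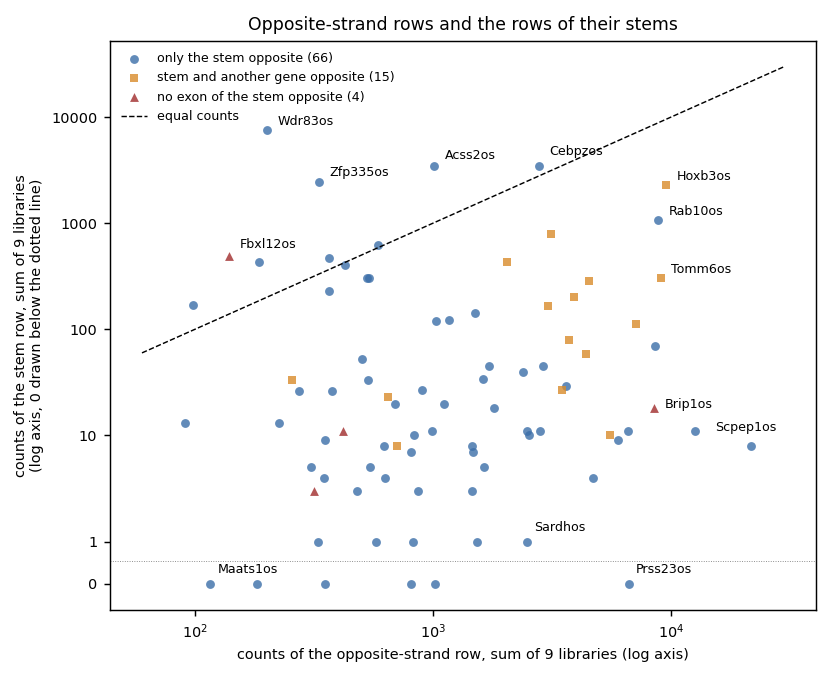
Each point is 1 of the 85 opposite-strand rows, with its counts summed over 9 libraries on the x axis and those of its stem's row on the y axis, both log axes; colours give what lies on the opposite strand. Most points lie far below the dashed line of equal counts, and 6 rows have a stem row at 0.

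Scpep1os had the most counts, and its stem encodes a lysosomal carboxypeptidase-like protein. In the control libraries it had 2253, 2245 and 2386 counts, in DON 2532, 2610 and 2512, and in DON plus glutamate 2437, 2417 and 2337. The Scpep1 row had 0 to 2 counts in each library, so no library came near a balance. Per kilobase of exon, Scpep1os was 7023-fold above Scpep1.

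Other rows had the same form. Ube4bos1, named for a ubiquitin ligase, summed to 12674 counts against 11 for Ube4b. Kdm6bos, named for a demethylase of histone H3, summed to 2826 against 11. Mxra8os summed to 6001 against 9 for Mxra8, a cell-surface protein. In each of these pairs nearly all counts lay under the opposite-strand name.

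For 5 stems, Prss23, Usp46, Hoxb5, Hopx and Maats1, the stem's row was at 0 in all 9 libraries. Against a floor of 3 counts over the 9 libraries, Prss23os was at least 5246-fold higher per kilobase and Usp46os1 at least 4157-fold higher. Hoxb5os was at least 471-fold higher and Hopxos at least 55.7-fold higher. Such bounds cover counting error only. Prss23 encodes a secreted serine protease, Usp46 a deubiquitinase, and Hoxb5 and Hopx homeobox proteins.

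In 7 pairs the stem's row was higher in all 9 libraries: Wdr83os, Zfp335os, Fbxl12os, Acss2os, Runx2os1, Hk1os and Cebpzos. Per kilobase of exon, 4 of these turned round. The opposite-strand row was then at 82.6% of the pair for Acss2os, 82.7% for Runx2os1, 76.0% for Hk1os and 76.6% for Cebpzos. In each of the 4 the stem has the longer annotated exon, as with 10163 bp for Acss2 against 629 bp for Acss2os. The Runx2, Hk1 and Cebpz rows face only their own opposite-strand row, while those of Wdr83, Zfp335, Fbxl12 and Acss2 face other genes. The Wdr83 row, with 7502 counts, faces 539 bp of Wdr83os exon and 128 bp of Dhps. Wdr83os is itself annotated as protein coding. The Cebpz row, with 3501 counts, faces 171 bp of Cebpzos, also protein coding.

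The Zfp335 row, with 2471 counts, faces 1107 bp of Pcif1, an enzyme that methylates the mRNA cap. The Fbxl12 row, with 496 counts, faces 1890 bp of Ubl5, a ubiquitin-like protein. The Acss2 row, with 3449 counts, faces 395 bp of Gss, the glutathione synthetase, 335 bp of Acss2os and 197 bp of Ggt7. The stem rows in this paragraph and the last were chosen with their values in view.

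The remaining 4 pairs changed order between libraries. Prox2os was above Prox2 in 1 of 9 libraries, Sp3os above Sp3 in 5 and Zeb2os above Zeb2 in 6. Maats1os was above Maats1 in 8, and in the other library both were at 0. Sp3, Zeb2 and Prox2 encode transcription factors. The summed counts were 590 for Sp3os against 626 for Sp3, 427 for Zeb2os against 407 for Zeb2, and 368 for Prox2os against 467 for Prox2. Per kilobase of exon the opposite-strand row was 5.21-fold, 10.5-fold and 2.74-fold above its stem.

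The rows share their position as well as their name. In GENCODE release M21, 77 of the 85 rows are annotated as antisense, 4 as protein coding and 2 as processed transcripts. Another, Ino80dos, is a lincRNA, and Abhd11os is a transcribed unitary pseudogene. All 80 stems are protein coding. In 81 rows an exon overlaps an exon of the stem on the other strand, and in 58 it overlaps coding exon. The median overlap was 245 bp, or 19.4% of the row's exon bases. Across the 85 rows the summed count followed neither the overlap (Spearman's rho 0.096) nor the exon length (0.057). These are descriptions over rows that share the same 9 libraries.

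For 66 rows the stem was the sole gene with exons opposite, and for 15 another gene lay there too. Tomm6os faces 1221 bp of Prickle4, 958 bp of Gm21981 and 219 bp of Tomm6, a subunit of the mitochondrial import pore. Hoxb3os faces 2250 bp of Hoxb3 and 953 bp of Hoxb2, neighbouring homeobox genes. For those rows the reading as the stem is not the only one the annotation allows.

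In 4 rows no exon of the stem lies opposite, so the name does not give the gene to read. Brip1os sits head to head with Brip1, a DNA repair helicase, and faces 800 bp of Med13 and 512 bp of Ints2. Med13 belongs to Mediator and Ints2 to Integrator, both partners of RNA polymerase. Fbxl12os and Slc7a6os sit tail to tail with their stems, and Dtnbos overlaps the gene body of Dtnb without sharing exon. Brip1os had 8515 counts and the others 418 or fewer.

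The sequences of 7 rows show the overlap letter by letter. They are printed because 6 of the 7 rows that changed between groups have coding exon of the stem opposite, and Scpep1os has the most counts. Each is read along the row's own strand, from the GENCODE M21 transcripts on build mm10. Capitals mark bases opposite a coding exon of the stem, and lower case marks flanking exon of the row.
Scpep1os: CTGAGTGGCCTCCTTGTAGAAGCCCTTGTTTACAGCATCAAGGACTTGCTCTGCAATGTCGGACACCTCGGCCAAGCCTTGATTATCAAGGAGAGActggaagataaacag
Prss23os: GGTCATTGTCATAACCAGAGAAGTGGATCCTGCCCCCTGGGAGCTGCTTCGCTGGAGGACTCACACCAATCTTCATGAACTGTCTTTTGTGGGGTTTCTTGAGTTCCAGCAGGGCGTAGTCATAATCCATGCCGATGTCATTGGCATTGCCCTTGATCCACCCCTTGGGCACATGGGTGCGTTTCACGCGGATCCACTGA
Mxra8os: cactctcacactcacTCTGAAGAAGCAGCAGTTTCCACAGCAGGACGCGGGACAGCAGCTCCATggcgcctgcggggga
Acss2os: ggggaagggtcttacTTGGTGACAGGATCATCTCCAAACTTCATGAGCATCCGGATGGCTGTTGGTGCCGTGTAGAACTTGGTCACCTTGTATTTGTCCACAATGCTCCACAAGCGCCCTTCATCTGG
Dlx4os: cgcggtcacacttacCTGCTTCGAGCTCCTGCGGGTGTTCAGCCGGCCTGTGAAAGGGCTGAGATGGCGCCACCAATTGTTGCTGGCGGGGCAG
Aknaos: ggaatgaagcagtacCTCCTG
Maats1os: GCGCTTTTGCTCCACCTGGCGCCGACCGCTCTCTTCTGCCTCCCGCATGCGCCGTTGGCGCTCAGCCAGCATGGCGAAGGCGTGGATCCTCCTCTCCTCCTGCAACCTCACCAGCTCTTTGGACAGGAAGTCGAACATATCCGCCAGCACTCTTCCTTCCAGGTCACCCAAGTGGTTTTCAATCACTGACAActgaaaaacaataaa
The stretches lie at chr11:88935856-88935966 (plus strand) for Scpep1os, chr7:89510007-89510206 (plus) for Prss23os and chr4:155839827-155839905 (minus) for Mxra8os. Those of Acss2os and Dlx4os lie at chr2:155556799-155556926 (minus) and chr11:95145181-95145274 (plus). Those of Aknaos and Maats1os lie at chr4:63381713-63381733 (plus) and chr16:38304809-38305015 (plus).

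The printed part of Prss23os is the first 200 of 853 bases opposite Prss23's coding exon. The Mxra8os capitals end in CAT, the reverse complement of the ATG at which Mxra8's protein begins. In Mxra8os, Acss2os, Dlx4os and Aknaos the lower-case letters just before the capitals are ac, the reverse complement of the GT that opens an intron of the stem. The row's exon runs on across that boundary, where the stem's messenger RNA would be spliced. Across all rows, 60 have exon running over 133 intron ends of their stem, 75 GT donors and 58 AG acceptors. In 81 of 81 rows with overlap, the longest opposite stretch was found as its reverse complement in a transcript of the stem.

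**Figure D2:**
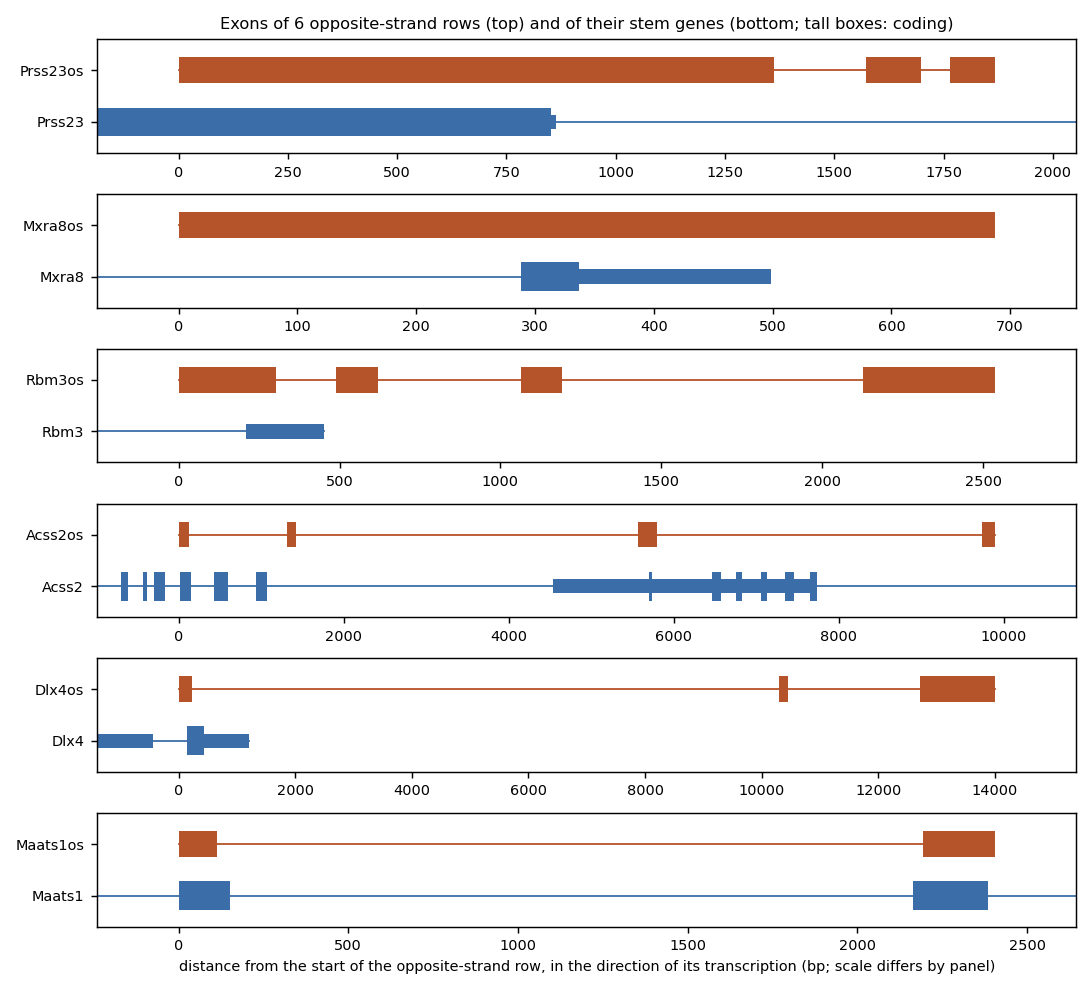
Exons of 6 opposite-strand rows (top line of each panel) and of their stem genes (bottom line, tall boxes coding), drawn to scale along the row's direction of transcription, in bp, with a scale of its own in each panel. Of the 6 (Prss23os, Mxra8os, Rbm3os, Acss2os, Dlx4os and Maats1os), Dlx4os has the shortest overlap, 79 bp, and Prss23os the longest, 864 bp.

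Rows that share a stem give separate readings only where they do not overlap. Gssos1 and Gssos2 share 315 bp of exon, and their counts differed by 0 to 5 in each library. Rapgef3os1 and Rapgef3os2 share 294 bp and differed by 37 to 58 counts. The rows of Usp46, of Ube4b and of Arhgap27 share no exon. Values of Gssos1 and Gssos2 are thus close to 1 measurement, not 2, and how reads were split between overlapping rows is uncertain.

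DON against control asks what the inhibitor did to these transcripts. Of 85 rows, 3 were higher in DON (Maats1os, Dlx4os and Aknaos) and 4 lower (Prss23os, Mxra8os, Rbm3os and Acss2os). The test was edgeR's quasi-likelihood test over 4731 rows, with Benjamini-Hochberg adjusted p under 0.05. Of all tested rows 6.32% were called, 2.64% higher and 3.68% lower, against 8.24% of the 85. Maats1os met the count minimum only through the groups with DON, and without it 6 of 84 rows were called (7.14%), 2 higher and 4 lower. Either share is near the background. The 85 rows had a median log2 change of -0.02, against 0.01 over all tested rows, with 41 above 0 and 44 below. Libraries of the 2 groups did not overlap in 27 of the 85 rows (31.8%), Maats1os among them, against 24.4% of all tested rows.

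By role of the stem, the calls were spread thin. Transcription and chromatin stems gave 2 higher calls among 24 rows, Dlx4os and Aknaos. Stems of membrane traffic, cytoskeleton, cilia and cell surface gave 1 lower call (Mxra8os) among 19. Maats1os, also in that role, was higher as a description only. Metabolism gave 1 lower among 17 (Acss2os), protein turnover 1 lower among 9 (Prss23os), and genome repair and RNA binding 1 lower among 4 (Rbm3os). None of the 8 rows of signalling and cell death stems passed the test. With 6.32% of all tested rows called, such small counts do not set the roles apart. These roles were assigned by stem name with the values known, also for rows with no stem exon opposite.

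**Figure D3:**
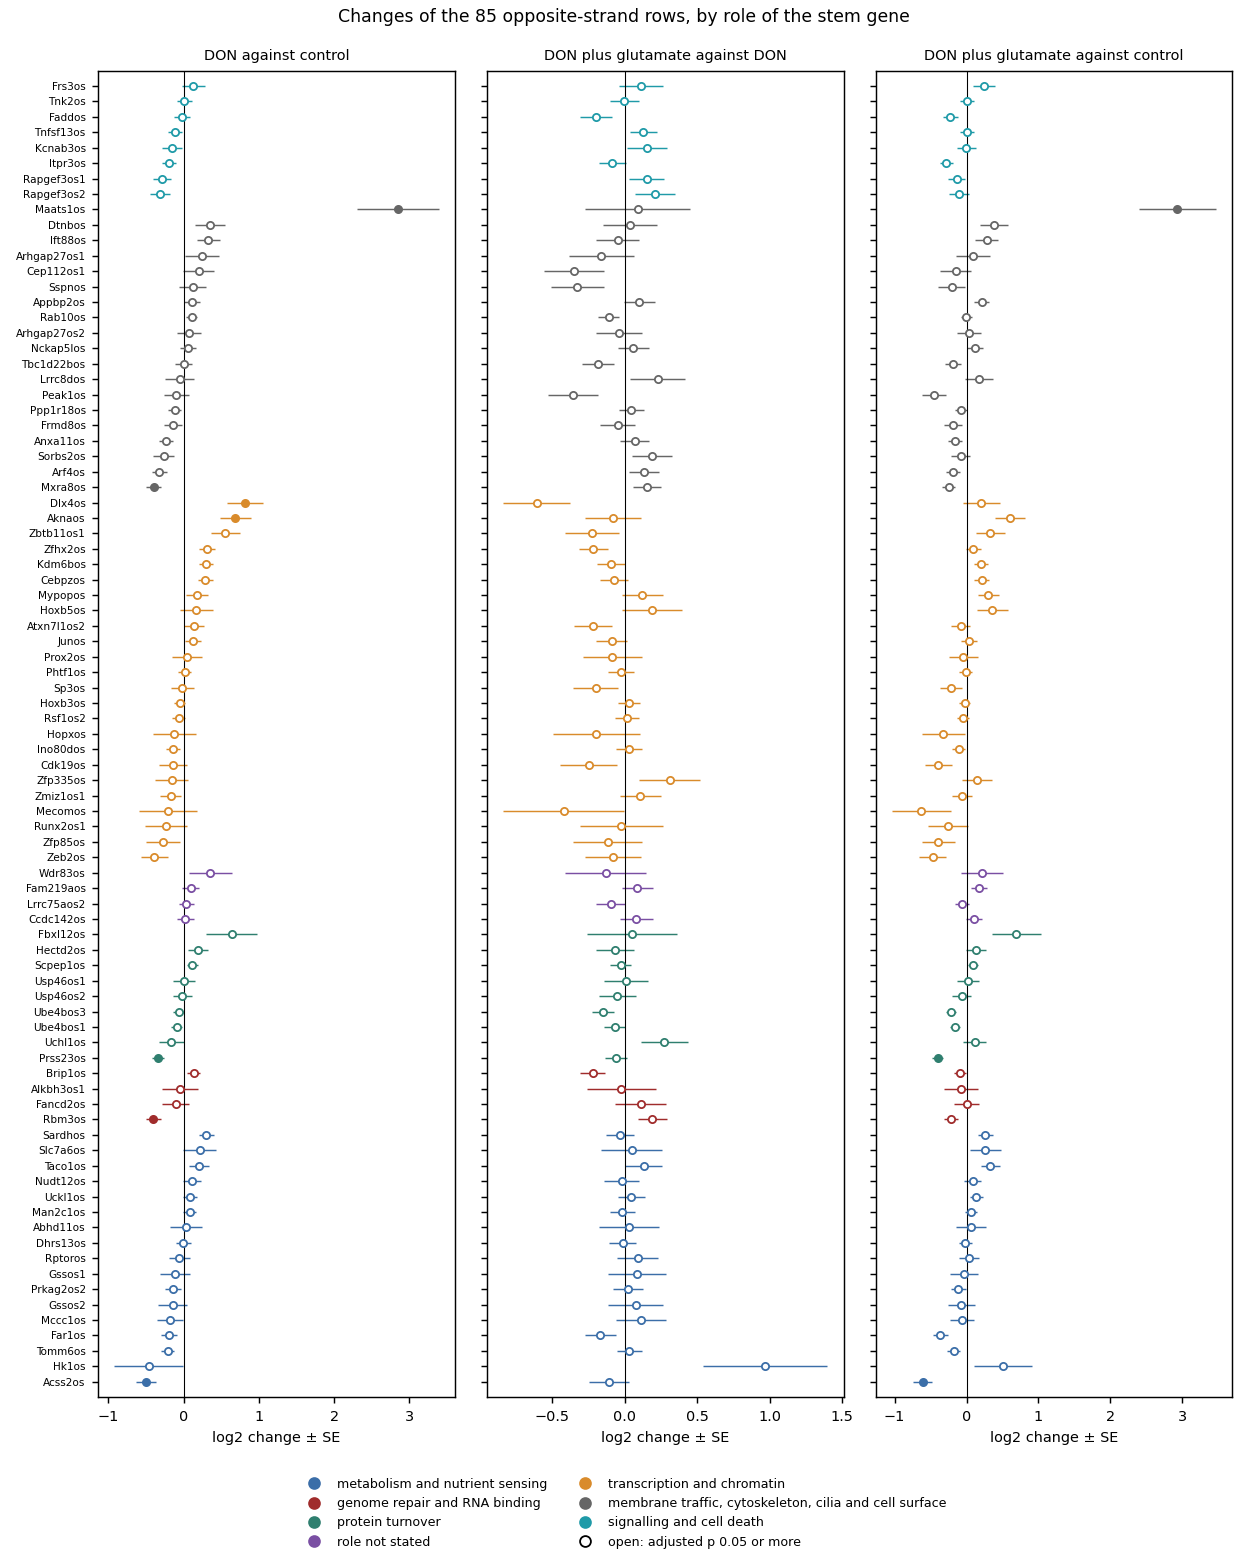
Log2 change with its standard error for each of the 85 rows, in 3 comparisons, coloured by the role of the stem; filled points have an adjusted p under 0.05. Filled points number 7 in DON against control, 0 in DON plus glutamate against DON and 3 in DON plus glutamate against control. Maats1os is among the filled points of both comparisons with control, and its difference is a description with no test.

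Prss23os, read as the secreted protease Prss23, was lower under DON. Its level was 670.4, 675 and 679 CPM in control, where CPM is the count scaled to a common library size with TMM factors. In DON it was 561, 501 and 537, and in DON plus glutamate 539, 491 and 504. Every library with DON was below every control library. The log2 change in DON against control was -0.34 ± 0.08 (SE), with an edgeR adjusted p of 0.00682. It passed under all 17 alternatives, with adjusted p from 0.00193 to 0.0426. In bulk RNA, a smaller share of cells with this RNA and less of it per cell cannot be told apart.

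Mxra8os, read as a cell-surface protein of the immunoglobulin family that also serves as an entry receptor for arthritogenic alphaviruses, was lower too. Its level was 649.6, 602 and 538 CPM in control. In DON it was 501, 392 and 463 CPM, and in DON plus glutamate 500.3, 537 and 469 CPM. The DON libraries lay below all controls. The log2 change was -0.40 ± 0.09 (SE), edgeR adjusted p 0.00939. Without control replicate 1 the adjusted p was 0.0827 and without DON replicate 2 it was 0.0700, in a range of 0.00175 to 0.0827 over the alternatives.

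Rbm3os is named for Rbm3, an RNA-binding protein induced by mild cold, and faces 94 bp of its noncoding exon. It was at 898, 836 and 825 CPM in control. In DON it was at 639.7, 640.2 and 659 CPM, a narrow group below every control. With glutamate added it was at 604, 715 and 897 CPM, the widest spread of the 3 groups. The log2 change in DON against control was -0.40 ± 0.10 (SE), edgeR adjusted p 0.0134. Without control replicate 1 the adjusted p was 0.0760, in a range of 0.00102 to 0.0760. The Rbm3 row itself had 3 to 11 counts per library.

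Acss2os is read as Acss2, which makes acetyl-CoA from acetate. Its level was 103, 123 and 106 CPM in control. It was 85.3, 79.6 and 70.5 CPM in DON, and 76.1, 62.5 and 80.4 CPM in DON plus glutamate. All 6 libraries with DON were below the 3 controls. The log2 change in DON against control was -0.50 ± 0.13 (SE), edgeR adjusted p 0.0191. Leaving out control replicate 2, DON replicate 2 or DON replicate 3 gave adjusted p of 0.133, 0.0550 and 0.113, in a range of 0.0178 to 0.133.

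The Acss2 row was at a log2 change of -0.09 ± 0.09 in DON against control, with an edgeR adjusted p of 0.618. The difference between its change and that of Acss2os was not tested. The Acss2 row faces Gss as well as Acss2os. The Gss row, which faces Acss2, was at -0.43 ± 0.21 with an edgeR adjusted p of 0.264. The Gss row was picked after its values were seen, and neither row passed the test. The rows that face Gss, Gssos1 and Gssos2, were at -0.12 ± 0.20 and -0.15 ± 0.19. In DON plus glutamate against control the Acss2 row was at -0.22 ± 0.09 and the Gss row at -0.49 ± 0.22. Every library lay below the controls in both rows, with edgeR adjusted p of 0.192 and 0.251, so neither passed.

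Maats1os is read as Maats1, a protein of the ciliary axoneme. Its counts were 0, 5 and 2 in control. They were 24, 17 and 13 in DON and 17, 16 and 22 in DON plus glutamate. Of 116 counts, 109 came from the groups with DON. All 6 libraries with DON were above the 3 controls, at 13.7 ± 4.08 CPM in DON against 1.83 ± 1.98 in control (SD, n = 3). The fitted log2 change was 2.85 ± 0.54 (SE). The row reached the minimum of 90 only through the groups with DON, so it had to differ, and its difference is a description with no test. With a stem row at 0 in every library, no pair value could be compared.

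Dlx4os, read as a homeobox factor, was at 15.4, 13.3 and 15.6 CPM in control and 29.2, 22.4 and 26.5 CPM in DON. With glutamate added it was at 15.8, 19.4 and 15.9 CPM. The DON libraries stood above the other 6. The log2 change in DON against control was 0.81 ± 0.24 (SE), edgeR adjusted p 0.0389. It missed the threshold in 8 of 16 alternatives, in a range of 0.0293 to 0.180. These include leaving out control replicates 1, 2 and 3 (0.0889, 0.151 and 0.0701) and DON replicates 1, 2 and 3 (0.131, 0.0550 and 0.108).

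Aknaos, read as an AT-hook protein found at centrosomes, has only 6 bp of stem exon opposite. It was at 20.8, 23.6 and 21.1 CPM in control and at 35.9, 33.2 and 36.4 CPM in DON. In DON plus glutamate it was at 33.9, 39.4 and 25.6 CPM. The log2 change in DON against control was 0.69 ± 0.21 (SE), edgeR adjusted p 0.0453. It missed the threshold in 10 of 16 alternatives, in a range of 0.0337 to 0.178. Without control replicates 1, 2 and 3 the adjusted p was 0.135, 0.0954 and 0.109, and without DON replicates 1, 2 and 3 it was 0.0994, 0.0911 and 0.132. Without DON plus glutamate replicate 1 it was 0.0508.

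**Figure D4:**
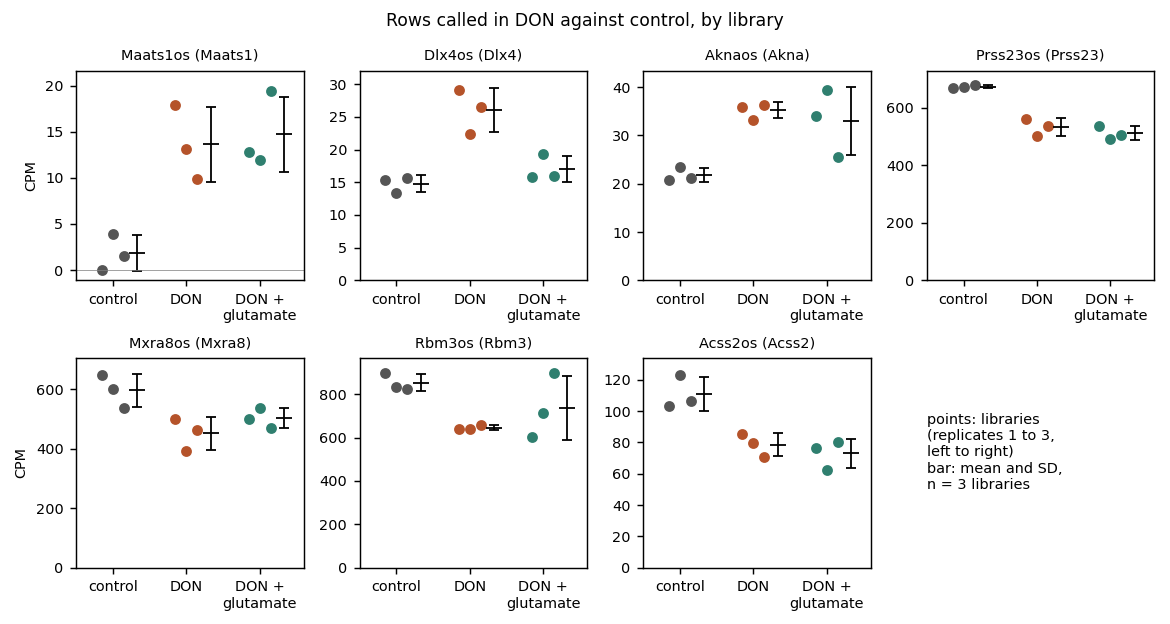
CPM of the 7 rows called in DON against control, by library, with 3 libraries per group as points and the mean and SD beside them. Prss23os, Mxra8os, Rbm3os and Acss2os are lower in all 3 DON libraries than in all 3 controls, and Maats1os, Dlx4os and Aknaos higher. Maats1os reached the count minimum only through the groups with DON, so its difference is a description with no test.

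The 5 rows with the most counts gave no call. Ube4bos1 was at 1093, 1168 and 1207 CPM in control, 1059, 1062 and 1138 in DON and 1025, 997 and 1086 in DON plus glutamate. Hoxb3os was at 831, 888 and 795 CPM in control, 788, 814 and 822 in DON and 872, 802 and 796 in DON plus glutamate. Tomm6os was at 863, 898 and 794 CPM in control, 812, 672 and 724 in DON and 807, 767 and 677 in DON plus glutamate. In these 3 rows the DON libraries overlapped the controls, while in Scpep1os and Rab10os every DON library was above every control. In DON against control, Scpep1os was at a log2 change of 0.12 ± 0.07 (edgeR adjusted p 0.405) and Ube4bos1 at -0.09 ± 0.07 (0.559). Hoxb3os was at -0.05 ± 0.07 (0.765), Tomm6os at -0.21 ± 0.09 (0.161) and Rab10os at 0.11 ± 0.07 (0.468). Together they held 30.1% of the counts of the 85 rows.

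Several rows lay just short of the threshold under edgeR. Kdm6bos, at a log2 change of 0.30, had an adjusted p of 0.0608, and so did Arf4os at -0.32, read as a small GTPase of the Golgi. Zfhx2os at 0.31 had 0.0702 and Sardhos at 0.30 had 0.0766, the latter read as the mitochondrial sarcosine dehydrogenase. Cebpzos at 0.29 had 0.0834 and Zbtb11os1 at 0.56 had 0.0917.

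Of the 80 stem rows, 25 were high enough for the test. In DON against control 1 of the 25 was called (4%), against 6.32% of all tested rows. That was Rab10, a small GTPase of membrane traffic, with a log2 change of 0.47 ± 0.13 and an edgeR adjusted p of 0.0337. Its counts were 113, 91 and 89 in control, 136, 157 and 123 in DON and 118, 127 and 114 in DON plus glutamate. Rab10os, with 963, 893 and 1004 counts in control, 1080, 1039 and 1043 in DON and 1011, 959 and 845 in DON plus glutamate, was at 0.11 ± 0.07. The difference between the changes of both rows was not tested.

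DON plus glutamate against DON asks what added glutamate did in treated cells. None of the 85 rows passed edgeR's test, while 7 of 4731 rows did (0.148%). At an unadjusted p under 0.05, 5 of the 85 rows were counted (5.88%), against 6.72% of all tested rows. DESeq2's Wald test and limma voom also called 0 of the 85. Groups did not overlap in 11 of the 85 rows (12.9%), against 11.5% of tested rows. The median log2 change was -0.02 for the 85 rows and 0.00 for all.

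The smallest p-values belonged to Dlx4os, Brip1os and Hk1os. Dlx4os, with every library below those of DON, was at a log2 change of -0.61 ± 0.23 with an edgeR adjusted p of 0.601. Brip1os was at 818, 728 and 841 CPM in DON and 640.5, 648 and 759 in DON plus glutamate. Its log2 change was -0.22 ± 0.09 with an adjusted p of 0.608. Its controls were at 696, 691 and 787 CPM, and the groups overlapped.

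Hk1os, named for hexokinase, the enzyme that starts glycolysis, had 5, 10 and 8 counts in DON and 20, 16 and 8 in DON plus glutamate. With 5, 14 and 12 counts in control, all 3 groups overlapped. Its log2 change against DON was 0.97 ± 0.43 with an edgeR adjusted p of 0.711. The row lay just inside the minimum, with 44 of its 98 counts from DON plus glutamate and 23 from DON. Its selection thus leaned on the group where it was high, and the difference is a description.

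DON plus glutamate against control repeated the control libraries used above, so it is no separate evidence. Of the 85 rows, 1 was called higher and 2 lower by edgeR, against 3.23% of 4731 tested rows (1.42% higher and 1.82% lower). The higher one was Maats1os, at a fitted log2 change of 2.93 ± 0.54, a description for the reason given above; without it 2 of 84 were called (2.38%). Prss23os was at -0.40 ± 0.08 (0.00215) and Acss2os at -0.61 ± 0.13 (0.00724). Groups did not overlap in 26 of the 85 rows (30.6%), Maats1os among them, against 21.0% of tested rows.

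Acss2os lost the call without control replicate 2 (0.0663) and without DON plus glutamate replicate 2 (0.0898), in a range of 0.00379 to 0.0898. Rbm3os, at -0.21 ± 0.10 with an edgeR adjusted p of 0.292, passed only without DON plus glutamate replicate 3, the library at 897 CPM. Its log2 change was then -0.37 (0.0203, in a range of 0.0203 to 0.749). Mxra8os was at -0.25 ± 0.09 (0.169), with all 3 libraries below the controls. Far1os, read as a fatty acyl-CoA reductase of ether lipid synthesis, was at -0.36 ± 0.11 (0.0608).

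Row names of other cell types were low throughout. The 7 smooth muscle marker rows summed to 77 to 129 counts per library, the 4 fibroblast rows to 1 to 7, the 4 endothelial rows to 0 to 3 and the 4 leukocyte rows to 2 to 11. The 4 epithelial rows summed to 0 or 1, with Epcam, Krt18 and Cdh1 at 0 in all libraries. The rows of Actb, Gapdh and Gls2 together had only 58 to 81 counts, so rows under these names do not show the cell type either way.

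Among names of a like kind, 3 os rows below the minimum were high enough for the test, Tmem51os1, Bach2os and N4bp2os, and 0 were called by edgeR in any comparison. Dlx1as, the one row named for a stem plus "as" with 90 counts or more, was not called either. Its log2 change in DON against control was 0.30 ± 0.14, with an edgeR adjusted p of 0.211.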

How the data were processed

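Reads were counted per gene by the authors; STAR, HTSeq and build mm10 are named in the submitters' processing notes, without versions or strand setting. The deposited values are whole-number counts, used as deposited. Row identifiers were matched to GENCODE M21 to place exons. The main test, 1 fit over all 9 libraries, was the two-sided quasi-likelihood test of edgeR 4.0.16 (R 4.3.3) with TMM scaling after filterByExpr, adjusted by Benjamini-Hochberg over 4731 rows. It was tested on simulated data. limma 3.58.1 (voom) and DESeq2 1.42.0 were alternatives, as were other scalings and filters, a replicate block and leaving out each library. Members and lists were chosen with earlier results of these data known. Values in every library are given for rows called in any comparison, the 3 with the smallest p in each and the 5 with the highest mean; stem rows singled out later are named as such. Dhx58os was left out by the rule. Rbm3os overlaps no coding exon, so its sequence is not printed. Totals of 1132822 to 1342286 counts limit precision for rows of few counts.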

Additional observations from a re-analysis of the deposited data

How the results depend on the processing

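Of 42 changes of single rows under 17 alternatives, 663 values kept direction and side of the threshold, 26 lost the call, 1 gained it and 16 reversed. In DON against control, the 7 called rows (299 of all rows) became 11 with library totals (306) and 4 with DESeq2's Wald test (231), which gave no adjusted p for Maats1os, Dlx4os and Aknaos. Leaving out 1 library gave 3 to 9 of the 85 rows and 173 to 318 of all rows. Here and below, counts of called rows include Maats1os wherever it passed, though its difference is a description only. In DON plus glutamate against DON, all rows called numbered 7, but 15 without a filter, 2 with DESeq2, 3 with voom, 3 with only the 2 groups compared and 1 to 11 with 1 library left out. In DON plus glutamate against control, leaving out 1 library gave 88 to 178 of all rows and 2 to 5 of the 85. The share of the pair was 96.0% per kilobase. By counts, without the row with the most counts, it was 87.2%.

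Reversals were of small log2 changes with no call. With 1 library left out, DON plus glutamate against DON ran from -0.087 to 0.0072 for Scpep1os, -0.017 to 0.057 for Hoxb3os, -0.030 to 0.11 for Tomm6os, -0.23 to 0.067 for Aknaos and -0.14 to 0.34 for Maats1os. DON plus glutamate against control ran from -0.071 to 0.016 for Hoxb3os and -0.045 to 0.035 for Rab10os. Library totals gave 0.028 for Hoxb3os and 0.049 for Rab10os, and only the 2 groups compared gave 0.0017 for Rab10os. The cause was not tested.

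Pairs of libraries with the same replicate number did not stand out: 9 such pairs had correlations of -0.19 to 0.15, and other pairs -0.23 to 0.21. With 3 libraries per group and many rows of few counts, these correlations cannot settle whether libraries were paired. With the replicate block, 5 of the 85 rows were called in DON against control (221 of all rows), 0 in DON plus glutamate against DON (6) and 3 in DON plus glutamate against control (117).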
